A study of Mus musculus with 12 samples.

Results

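The cell cycle and mitosis genes followed here are 42 named genes. Of these, 27 act in or just before mitosis and 15 in DNA replication and S phase. The members are given by gene name, and all 42 were on the array. A member was measured when a probe lay well above background on at least 2 of the 12 arrays. That held for 41 members, 27 mitotic and 14 replication genes, out of 24080 genes tested. The exception was Ccne2, a cyclin of S phase entry, whose probes were not well above background on any of the 12 arrays.

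Total RNA of whole ear skin from C57BL/6J mice was hybridised to single-colour 60-mer arrays, 1 array for each labelled sample. Besides the wild type (WT), mice lacked Tlr7 (Tlr7-/-), Tlr9 (Tlr9-/-), both receptors (Tlr7-/-Tlr9-/-) or Card14 (Card14-/-). Each genotype was taken untreated, or 4 h after both ears received 62.5 mg of cream holding 5% imiquimod (IMQ). Imiquimod is a small molecule that activates TLR7 and is used to induce psoriasis-like dermatitis. There were 5 untreated arrays, 1 for each genotype, and 7 IMQ arrays, 2 each for Card14-/- and Tlr7-/-Tlr9-/- and 1 for every other genotype. TLR7 and TLR9 are endosomal receptors for nucleic acids, and CARD14 is a keratinocyte scaffold that signals to NF-kB. The labels give no age and no cell type to which a deletion was limited. RNA of 6 to 8 mice was pooled for each array, so the spread between mice is not measured, and the labels leave unsaid whether repeat arrays of a genotype hold 1 pool. No group received cream without imiquimod.

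Dividing cells express the genes of the cell cycle in waves. Genes of origin licensing and DNA synthesis, such as the MCM helicase subunits, PCNA and ribonucleotide reductase, rise before and during S phase under the control of E2F factors. Genes of the spindle, the kinetochore and mitotic exit, such as cyclin B, Polo-like kinase and the mitotic kinesins, rise in G2 under the control of FOXM1, B-MYB and the MuvB core of the DREAM complex. In skin most dividing cells are basal keratinocytes and cells of the hair follicle and sebaceous gland. In RNA of a whole tissue, fewer cells of a kind and less RNA per cell cannot be told apart.

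The promoters show the sequence elements by which these classes are usually recognised, and a few are printed to show how they differ. Of the 42 members, 34 had a promoter window in RefSeq (build GRCm38.p6), reaching from 250 bases before to 50 bases after the annotated start, 22 mitotic and 12 replication members. Searched on both strands were the CHR element as TTTGAA, the CCAAT box as CCAAT, and E2F sites as TTTCCCGC, TTTCGCGC, TTTGCCGC or TTTGGCGC, counting overlapping matches. In the lines below, capitals mark every match of a motif and all other bases are in lower case. Each line runs 5′ to 3′ on the strand of the gene and ends 30 bases after the start.
Cdk1: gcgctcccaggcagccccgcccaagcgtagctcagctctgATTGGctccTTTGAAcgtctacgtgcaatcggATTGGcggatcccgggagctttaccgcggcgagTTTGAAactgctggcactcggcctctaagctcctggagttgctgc
Ccnb2: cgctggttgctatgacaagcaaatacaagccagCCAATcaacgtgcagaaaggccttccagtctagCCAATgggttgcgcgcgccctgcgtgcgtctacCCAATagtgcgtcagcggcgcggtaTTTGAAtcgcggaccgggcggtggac
Ttk: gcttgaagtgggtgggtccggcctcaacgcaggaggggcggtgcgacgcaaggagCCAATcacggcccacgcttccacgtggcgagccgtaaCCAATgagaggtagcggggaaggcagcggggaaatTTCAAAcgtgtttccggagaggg
Mcm6: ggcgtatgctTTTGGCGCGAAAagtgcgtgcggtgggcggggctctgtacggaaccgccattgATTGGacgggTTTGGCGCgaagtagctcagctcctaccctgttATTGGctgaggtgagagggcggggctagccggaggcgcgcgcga
Mcm5: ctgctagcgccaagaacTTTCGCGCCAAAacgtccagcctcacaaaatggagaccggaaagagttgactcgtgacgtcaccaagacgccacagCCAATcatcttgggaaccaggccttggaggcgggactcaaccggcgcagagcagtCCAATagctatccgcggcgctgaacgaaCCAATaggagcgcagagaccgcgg
The first 3 are mitotic members. In the stretch printed for Cdk1, at chr10:69352883-69353032 on the minus strand, 2 matches of the CHR element and 2 of the CCAAT box are marked, the latter in the reverse orientation. Those for Ccnb2, at chr9:70421525-70421674 on the minus strand, and Ttk, at chr9:83834569-83834718 on the plus strand, have CCAAT boxes before the start and 1 CHR element just after it. The other lines are replication members, Mcm6 at chr1:128359676-128359825 on the minus strand and Mcm5 at chr8:75109339-75109538 on the plus strand. Their capitals mark overlapping or separate E2F sites and CCAAT boxes and no CHR element. The printed stretches begin 120 bases before the start, except that of Mcm5, which begins 170 bases before it. Matches farther from the start are not shown, among them an E2F site of Cdk1 at -131 and a CHR element of Ccnb2 at -167.

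The motifs were spread unevenly over the classes. A CHR element lay in 17 of the 22 mitotic promoters, in 1 of the 12 replication promoters (that of Mcm2) and in 20.2% of the promoters of all 27025 genes with a window. An E2F site lay in 6 of the 12 replication promoters, those of Mcm3, Mcm5, Mcm6, Mcm7, Cdc6 and Cdt1, in 1 of the 22 mitotic promoters, that of Cdk1, and in 2.6% of all. The CCAAT box lay in 19 mitotic and 8 replication promoters and in 41.1% of all. These matches describe letters in a window and do not show a factor bound there.

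After IMQ the cell cycle genes were lower than in untreated skin. On average over the 5 genotypes, 21 of the 41 measured members fell past the threshold (limma, adjusted p under 0.05) and 0 rose. The fallers were 16 of 27 mitotic and 5 of 14 replication members. Of all genes tested, 15.9% fell by the same rule and 10.4% rose. The median average response, IMQ minus untreated on the log2 scale, was -0.58 for the mitotic members, -0.31 for the replication members and -0.08 for all genes. In all, 40 of 41 members lay below 0, against 58.9% of all genes. Under scaling of each array to its 75th percentile in place of quantile normalization, 3157 genes fell and 3241 rose over all genes, against 3839 and 2512, and 16 mitotic and 3 replication members fell. Each p-value measures the average response against its spread between the 5 genotypes, in a fit blocked by genotype with 4 residual degrees of freedom. That spread holds differences between genotypes, pools and slides alike. Its median SD over all genes was 0.27, against 0.047 for the log2 signal of repeat arrays.

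**Figure D1:**
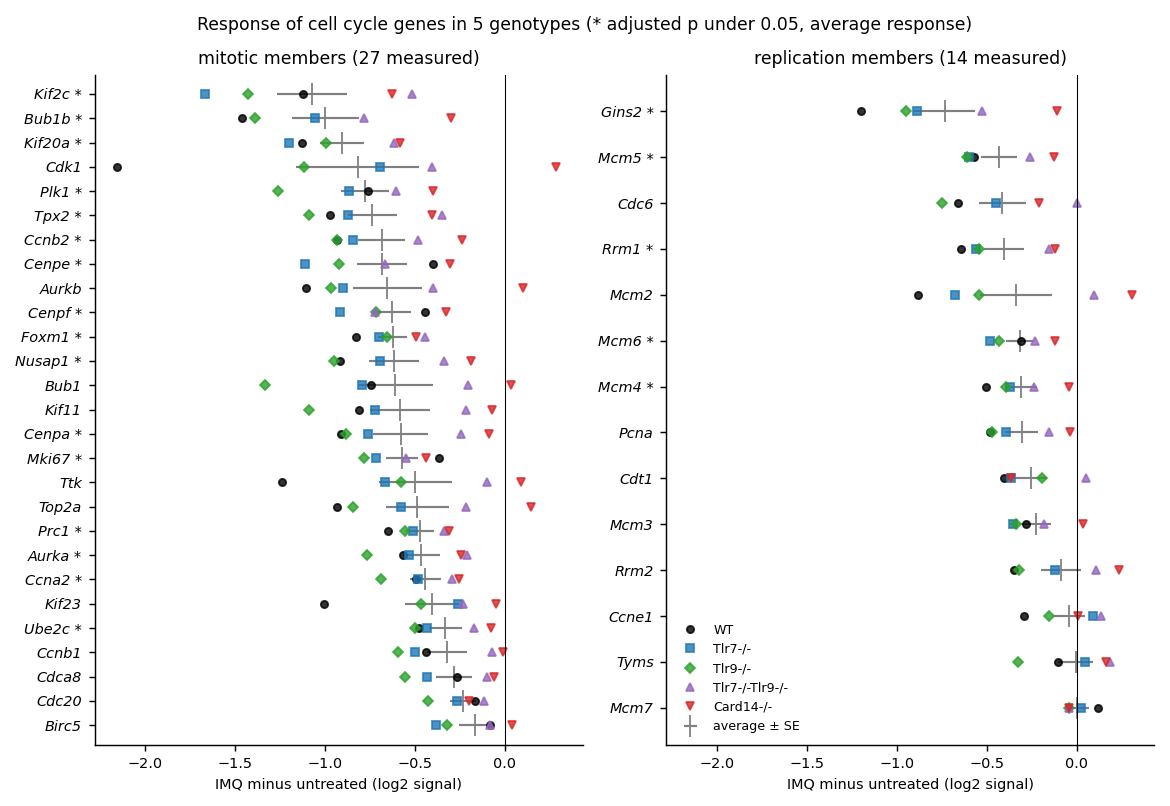
Response of each of the 41 measured members, in log2 signal (x axis), by gene (y axis), with 1 point per genotype and a grey cross and bar for the average and its SE. The mitotic members range from Kif2c at -1.07 to Birc5 at -0.17, and the replication members from Gins2 at -0.73 to Mcm7 near 0, with the points of Tlr7-/-Tlr9-/- and Card14-/- mostly nearest to 0.

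The number of members past the threshold depended on single genotypes, and so did that of all genes. Leaving out the untreated and IMQ arrays of 1 genotype at a time left 3 mitotic fallers without Tlr9-/-, 5 without Tlr7-/-, 7 without WT, 12 without Tlr7-/-Tlr9-/- and 19 without Card14-/-. The replication fallers numbered 0 without WT, without Tlr7-/-, without Tlr9-/- or without Tlr7-/-Tlr9-/-, and 6 without Card14-/-. Among all 24080 genes, 708 fell without Tlr9-/-, 1442 without Tlr7-/-, 1760 without WT, 1857 without Tlr7-/-Tlr9-/- and 3087 without Card14-/-, against 3839. The medians ran from -0.70 to -0.50 for the mitotic and from -0.37 to -0.24 for the replication members.

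Slide and signal went with treatment in part. Slide 1 (scan 1) held all 5 untreated arrays together with treated Tlr9-/-, Tlr7-/- and WT, and slide 2 (scan 2) held the 4 treated arrays of Card14-/- and Tlr7-/-Tlr9-/-. For the last 2 genotypes the slide cannot be told apart from the treatment. Each array had 60.1% to 65.7% of its spots well above background. The processed signal was lower after IMQ, with 75th percentiles of 527 to 779 against 1070 to 1236 untreated, and its part in the results was not tested. Within the 3 genotypes measured on slide 1 alone, 22 mitotic and 8 replication members fell and the medians were -0.81 and -0.42. In the same fit 3339 of all 24080 genes fell, and the median of all genes was -0.11. With slide and genotype both as blocks, 27 mitotic and 11 replication members fell, beside 7575 of all 24080 genes. That fit called 12028 genes in all, against 6351. It counted every array singly, among them the repeat arrays that may share a pool, where the main fit averaged them. Its medians, -0.81 and -0.42, were those of the slide 1 genotypes.

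The mitotic members with the largest average responses are described first. Kif2c, a kinesin that takes apart microtubules at the kinetochore, had a log2 signal of 5.97 in untreated WT, 5.83 in Tlr7-/-, 6.00 in Tlr9-/-, 6.04 in Tlr7-/-Tlr9-/- and 5.70 in Card14-/-, and after IMQ of 4.84, 4.16, 4.57, 5.43 and 5.61, and 5.04 and 5.10, in the same order. All 7 IMQ arrays lay below all 5 untreated ones, and the IMQ array of Tlr7-/- was not well above background, so its fall there is at least 3.18-fold. The average response of Kif2c was -1.07 ± 0.19 (SE, n = 5 genotypes, at least 2.10-fold, adjusted p = 0.0169 by limma).

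Bub1b, the checkpoint protein BUBR1 that delays anaphase until chromosomes are attached, had untreated values of 7.26, 7.11, 7.50, 7.46 and 6.93 in WT, Tlr7-/-, Tlr9-/-, Tlr7-/-Tlr9-/- and Card14-/-. After IMQ it had 5.80, 6.06 and 6.11 in WT, Tlr7-/- and Tlr9-/-, 6.63 and 6.72 in Tlr7-/-Tlr9-/-, and 6.78 and 6.48 in Card14-/-. The groups did not overlap, and the WT, Tlr7-/- and Tlr9-/- arrays were the lowest. Its average fall was 2.00-fold (-0.998 ± 0.19 SE, adjusted p = 0.018 by limma). Kif20a, a kinesin of the central spindle and cytokinesis, ran from 9.06 (WT) to 9.39 (Tlr7-/-Tlr9-/-) on untreated arrays, with 9.27 in Tlr7-/-, 9.32 in Tlr9-/- and 9.16 in Card14-/-. Its IMQ values were 7.93, 8.07 and 8.33 in WT, Tlr7-/- and Tlr9-/-, 8.87 and 8.67 in Tlr7-/-Tlr9-/-, and 8.58 and 8.56 in Card14-/-, again below every untreated array (1.87-fold, -0.91 ± 0.12 SE, adjusted p = 0.00997 by limma).

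Plk1, the Polo-like kinase that drives entry into and exit from mitosis, had untreated values of 10.07 in WT, 10.20 in Tlr7-/-, 10.32 in Tlr9-/-, 10.38 in Tlr7-/-Tlr9-/- and 9.90 in Card14-/-. After IMQ it had 9.31, 9.34 and 9.06 in the first 3, 9.78 and 9.77 in Tlr7-/-Tlr9-/-, and 9.52 and 9.48 in Card14-/-. Treated and untreated arrays did not overlap, and the treated Tlr9-/- array was the lowest (average -0.78 ± 0.13 SE, adjusted p = 0.015 by limma). Tpx2, which activates Aurora A on spindle microtubules, had untreated values of 8.36, 8.44, 8.64, 8.52 and 8.23 in the order WT, Tlr7-/-, Tlr9-/-, Tlr7-/-Tlr9-/-, Card14-/-. Its IMQ values were 7.38, 7.57, 7.55, 8.14 and 8.20, and 7.86 and 7.78. The 7 treated arrays were again all lower, those of Tlr7-/-Tlr9-/- just under the lowest untreated array (-0.74 ± 0.14 SE, adjusted p = 0.0182 by limma).

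Ccnb2, cyclin B2, a partner of the mitotic kinase CDK1, had untreated values of 10.86, 11.00, 11.26, 11.16 and 10.75 in the order WT, Tlr7-/-, Tlr9-/-, Tlr7-/-Tlr9-/-, Card14-/-. Its IMQ values were 9.92, 10.16, 10.33, 10.68 on both arrays of Tlr7-/-Tlr9-/-, and 10.54 and 10.48. The groups did not overlap, and WT was lowest after IMQ (-0.69 ± 0.13 SE, adjusted p = 0.0185 by limma). Cenpe, a kinetochore motor that aligns chromosomes, had untreated values of 9.82, 10.13, 10.23, 10.06 and 9.70 and IMQ values of 9.42, 9.01, 9.31, 9.42 and 9.36, and 9.37 and 9.41. Here the treated Tlr7-/- array was lowest and the other treated arrays lay within 9.31 to 9.42 whatever the genotype (-0.68 ± 0.14 SE, adjusted p = 0.0219 by limma).

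Cdk1, the kinase that starts mitosis, had a large average response that did not pass the threshold (-0.82 ± 0.34 SE, adjusted p = 0.125 by limma). Its untreated values were 7.94 in WT, 7.21 in Tlr7-/-, 7.41 in Tlr9-/-, 7.72 in Tlr7-/-Tlr9-/- and 6.95 in Card14-/-. After IMQ they were 5.78, 6.51 and 6.29 in WT, Tlr7-/- and Tlr9-/-, 7.32 on both arrays of Tlr7-/-Tlr9-/-, and 7.29 and 7.18 in Card14-/-. WT had the highest untreated and the lowest treated value, while in Card14-/- both treated arrays lay above the untreated one, so the groups overlapped. It was the only member for which untreated WT was the highest of the 5 untreated arrays, 0.63 above the median of the others.

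**Figure D2:**
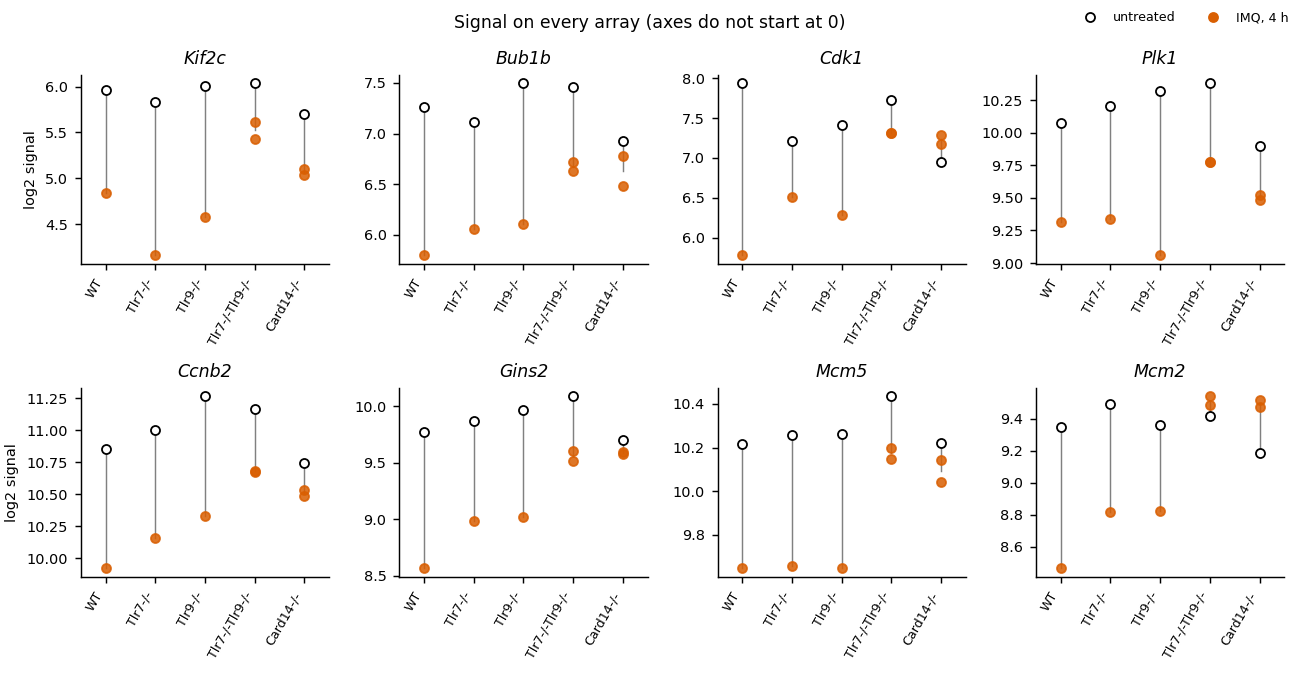
Log2 signal (y axis, not from 0) on every array by genotype (x axis) for 5 mitotic and 3 replication members, open circles untreated and filled circles 4 h after IMQ, with a line to the mean of the treated arrays. For Kif2c, Bub1b, Plk1, Ccnb2, Gins2 and Mcm5 every filled circle lies below every open one, and for Cdk1 and Mcm2 the treated arrays of Card14-/- lie above their untreated array.

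The other mitotic members that fell were Foxm1, Nusap1, Mki67, Cenpf, Cenpa, Prc1, Aurka, Ccna2 and Ube2c, with average responses from -0.63 (Cenpf) to -0.33 (Ube2c). Foxm1, the transcription factor of the G2 and mitosis programme, fell by 0.62 ± 0.08 (SE, adjusted p = 0.00986 by limma), and its 5 responses lay between -0.83 and -0.44. Mki67, the protein Ki-67 that coats mitotic chromosomes and is the common stain for cycling cells, fell by 0.57 ± 0.09 (SE, adjusted p = 0.0124). Those that did not pass the threshold, beside Cdk1, were Aurkb, Bub1, Kif11, Ttk, Top2a, Kif23, Ccnb1, Cdca8, Cdc20 and Birc5, with average responses from -0.65 (Aurkb) to -0.17 (Birc5). Aurkb, Cdca8 and Birc5 are subunits of the chromosomal passenger complex, and none of these 3 passed the threshold.

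Among the replication members, Gins2 had the largest response. Gins2, a subunit of the GINS complex of the replicative helicase, had untreated values of 9.77, 9.87, 9.96, 10.09 and 9.70 in WT, Tlr7-/-, Tlr9-/-, Tlr7-/-Tlr9-/- and Card14-/-. After IMQ it had 8.56, 8.98 and 9.02 in WT, Tlr7-/- and Tlr9-/-, 9.52 and 9.60 in Tlr7-/-Tlr9-/-, and 9.60 and 9.58 in Card14-/-. The treated arrays did not overlap with the untreated ones, but those of Card14-/- lay close to their own untreated value (average 1.66-fold lower, -0.73 ± 0.17 SE, adjusted p = 0.0289 by limma). Mcm5, a subunit of the MCM helicase, had untreated values of 10.22, 10.26, 10.26, 10.43 and 10.22 in the same order, and IMQ values of 9.65, 9.66, 9.65, 10.20 and 10.15, and 10.04 and 10.15. Values after IMQ were close to each other in WT, Tlr7-/- and Tlr9-/- and higher in the other 2 genotypes, still below every untreated array (-0.43 ± 0.10 SE, adjusted p = 0.0309 by limma).

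Rrm1, the large subunit of ribonucleotide reductase, had untreated values of 11.16, 11.32, 11.35, 11.38 and 11.18 in the order WT, Tlr7-/-, Tlr9-/-, Tlr7-/-Tlr9-/-, Card14-/-, and IMQ values of 10.52, 10.77, 10.80, 11.23 and 11.22, and 11.09 and 11.02. It fell by 0.40 ± 0.11 (SE, adjusted p = 0.0438 by limma), although the treated arrays of Tlr7-/-Tlr9-/- overlapped with the untreated range. Cdc6, which loads the MCM helicase onto origins, had untreated values of 7.77, 7.84, 8.11, 7.91 and 7.83 and IMQ values of 7.11, 7.40, 7.36, 7.88 and 7.95, and 7.53 and 7.71. Its Tlr7-/-Tlr9-/- arrays stayed within the untreated range, and the average response did not pass the threshold (-0.41 ± 0.13 SE, adjusted p = 0.0635 by limma).

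Mcm2, another subunit of the MCM helicase, had untreated values of 9.35, 9.50, 9.36, 9.42 and 9.19 in the order WT, Tlr7-/-, Tlr9-/-, Tlr7-/-Tlr9-/-, Card14-/-. Its IMQ values were 8.46, 8.82, 8.82, 9.49 and 9.54, and 9.48 and 9.52. The treated arrays were below the untreated range in the first 3 genotypes and near or above its top in the others, and the average response did not pass the threshold (-0.34 ± 0.20 SE, adjusted p = 0.244 by limma). Cdt1, the partner of CDC6 in loading the helicase, had untreated values of 11.06, 11.39, 11.21, 11.18 and 11.55, the highest in Card14-/-. After IMQ it had 10.65, 11.02, 11.02, 11.24 and 11.23, and 11.18 on both Card14-/- arrays (-0.26 ± 0.09 SE, adjusted p = 0.0884 by limma). In Card14-/- Cdt1 had the largest response of the replication members, -0.37.

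Mcm4 (-0.31) and Mcm6 (-0.32) also fell on average, with adjusted p of 0.0497 and 0.0368 by limma. The remaining replication members did not pass the threshold. They were Pcna, the sliding clamp (-0.31), Mcm3 (-0.22), Rrm2, the small subunit of ribonucleotide reductase (-0.09), Ccne1, cyclin E1 (-0.04), Tyms, thymidylate synthase (-0.01), and Mcm7 (0.00). For Mcm7 the untreated mean was 12.06 ± 0.08 (SD, n = 5) and the IMQ mean 12.06 ± 0.06 (SD, n = 7).

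Read array by array, the 7 IMQ arrays lay below all 5 untreated arrays for 14 members, 10 mitotic and 4 replication genes. This held for 13.4% of all genes. The difference IMQ minus untreated was below 0 in all 5 genotypes for 27 members, 21 mitotic and 6 replication, against 25.9% of all genes. It was above 0 in all 5 for 0 members, against 15.4% of all genes.

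The mitotic members lay lower than the replication members in each genotype, described here without a test. The medians were -0.81 and -0.44 in WT, -0.70 and -0.38 in Tlr7-/-, -0.84 and -0.41 in Tlr9-/-, -0.34 and -0.10 in Tlr7-/-Tlr9-/-, and -0.20 and -0.04 in Card14-/-. The replication median was higher by 0.30 ± 0.11 (SD, n = 5 genotypes), from 0.15 in Card14-/- to 0.43 in Tlr9-/-. The classes also differed in brightness, with median log2 signals in untreated WT of 9.44 for the mitotic and 11.11 for the replication members. The part of signal level in the difference between the classes was not tested. All 27 mitotic members lay below 0 in WT, Tlr7-/-, Tlr9-/- and Tlr7-/-Tlr9-/- and 21 of them in Card14-/-. For the 14 replication members the counts were 13, 11, 14, 8 and 9 in the order WT, Tlr7-/-, Tlr9-/-, Tlr7-/-Tlr9-/-, Card14-/-. The medians of all genes lay between -0.15 and -0.03. Within the mitotic class, the 17 members with a CHR element in the promoter window had a median average response of -0.57 and the 5 without one -0.61. Within the replication class, the 6 with an E2F site had a median of -0.29 and the 6 without -0.20.

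**Figure D3:**
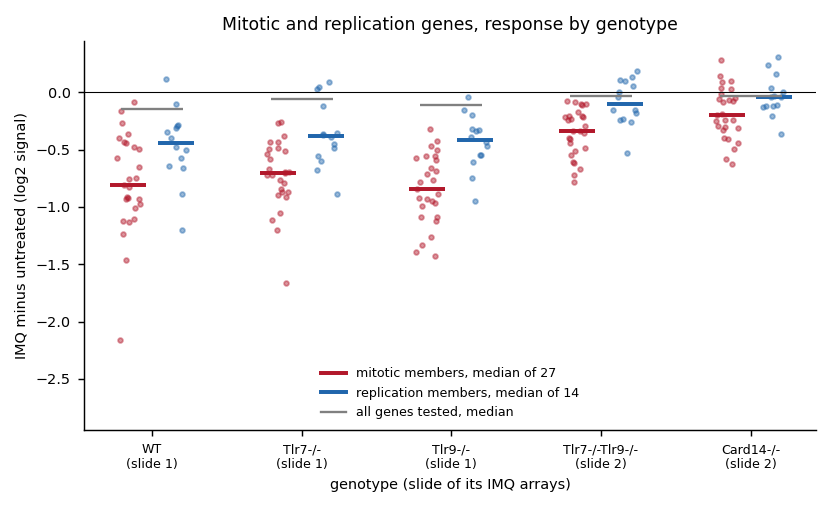
Response of the mitotic and replication members in each genotype (x axis, with the slide of its IMQ arrays), in log2 signal (y axis), 1 point per gene with a bar at the class median and a grey bar at the median of all genes. The mitotic medians lie between -0.84 and -0.70 where the IMQ array is on slide 1 and at -0.34 and -0.20 where it is on slide 2.

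In single genotypes a member was called when its adjusted p was under 0.05 and its response at least 1 on the log2 scale, in a limma fit of the 10 group means. The only source of spread in that fit is the repeats of treated Card14-/- and Tlr7-/-Tlr9-/- (2 residual degrees of freedom), which single arrays are taken to share. In WT 8 members fell, against 6.73% of all genes. They were Cdk1, Bub1b, Aurkb, Kif20a, Kif23, Kif2c, Ttk and Gins2. Cdk1 had the largest response, 4.46-fold lower (-2.16 ± 0.08 SE, adjusted p = 0.00404), followed by Bub1b (2.76-fold), Ttk, the checkpoint kinase MPS1 (2.36-fold), and Gins2 (2.30-fold).

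In Tlr7-/- 4 members fell, Bub1b, Kif20a, Kif2c and Cenpe, against 3.67% of all genes. In Tlr9-/- 7 fell, Cdk1, Bub1, Bub1b, Plk1, Kif11, Kif2c and Tpx2, against 3.95%. Without either repeat array of treated Card14-/- both counts became 0, and under the normexp background correction WT, Tlr7-/- and Tlr9-/- had 2, 2 and 1. In Tlr7-/-Tlr9-/- 0 members fell, where 2.24% of all genes were called lower. An unadjusted p under 0.05, in either direction, was found there for 27 of 41 members and for 12142 of all 24080 genes. In Card14-/- 0 members fell, where 1.34% of all genes were called lower. There the unadjusted p was under 0.05 for 17 of 41 members and for 10467 of all 24080 genes. The largest responses in these 2 genotypes were Bub1b at -0.79 in Tlr7-/-Tlr9-/- and Kif2c at -0.63 in Card14-/-. With no limit on size, an alternative added after the data were seen, 36, 34, 37, 18 and 10 members fell in the order WT, Tlr7-/-, Tlr9-/-, Tlr7-/-Tlr9-/-, Card14-/-. The shares of all genes were then 33.2%, 18.9%, 25.1%, 19.4% and 13.8%. By that rule 1 member rose, Mcm2 in Card14-/- (0.31 ± 0.05 SE, adjusted p = 0.0376), where 11.9% of all genes rose.

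Whether the response of a knockout differed from that of WT was tested as the difference of the 2 responses. All 4 contrasts share the WT arrays. For Tlr7-/- minus WT only Cdk1 was called, higher by 1.46 ± 0.11 (SE, adjusted p = 0.0306 by limma), where 1.2% of all genes were called higher. All 4 groups of that contrast have 1 array each, and its error comes from the repeats of other genotypes, which may share a pool. Those repeats had a median SD of 0.047, against 0.148 between the untreated arrays of different genotypes. For Tlr9-/- minus WT 0 members were called by limma, and 0.278% of all genes were called higher. At an unadjusted p under 0.05 there were 11 of 41 members, beside 5975 of all 24080 genes. For Tlr7-/-Tlr9-/- minus WT Cdk1 (1.75) and Ttk (1.14) were called, against 4.65% of all genes. For Card14-/- minus WT 7 members were called, Top2a, Cdk1, Bub1b, Aurkb, Ttk, Mcm2 and Gins2, with differences from 1.08 to 2.44, against 5.16%. No member was called lower in any of the 4. Of all 24080 genes, 541 were called lower for Tlr7-/-, 189 for Tlr9-/-, 1343 for Tlr7-/-Tlr9-/- and 1285 for Card14-/-. The counts of 1, 2 and 7 became 0 when any 1 repeat array was left out, which leaves 1 residual degree of freedom, and the normexp background correction gave 0, 0, 1 and 4 in the 4 contrasts. With no limit on size, members higher than in WT numbered 1, 0, 17 and 21 in these 4 contrasts, against 2.36%, 0.295%, 17.3% and 18.7% of all genes. In the last 2 contrasts genotype and slide cannot be told apart.

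The untreated arrays also differed from each other. Among the 5 untreated arrays, that of Card14-/- was the lowest for 26 of 41 members (63.4%), against 19.9% of all genes, and that of Tlr7-/-Tlr9-/- the highest for 23 (56.1%), against 20.4%. Untreated WT was the lowest for 14 members (34.1%), against 25.9% of all genes. After IMQ, WT was the lowest of the 5 genotypes for 30 members (73.2%), against 35.9% of all genes, and Tlr7-/-Tlr9-/- the highest for 36 (87.8%), against 27.8%. The repeat IMQ arrays differed by a median of 0.06 in Tlr7-/-Tlr9-/- and 0.05 in Card14-/- over the members, and by at most 0.30, for Bub1b in Card14-/-. With 1 pool for each untreated group these orders have no test.

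**Figure D4:**
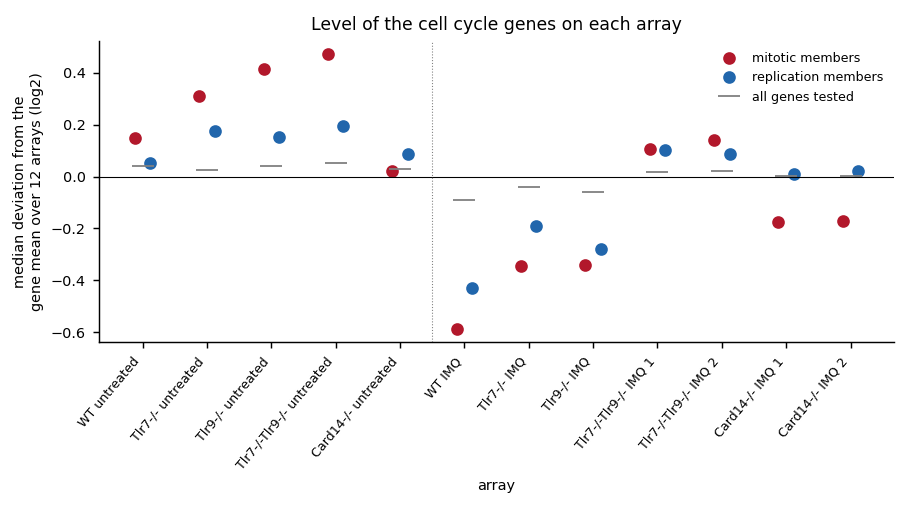
Median deviation of the mitotic and replication members from each gene's mean over the 12 arrays, in log2 signal (y axis), for each array (x axis), with the same for all genes as a grey bar and a dotted line between untreated and IMQ arrays. The mitotic members lie at 0.02 to 0.47 on untreated arrays, at -0.59 to -0.34 on the 3 treated arrays of slide 1, and at -0.18 to 0.14 on the 4 IMQ arrays of slide 2.

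The presence of Tlr7, the receptor of imiquimod, was tested as the responses of Tlr7-/- and Tlr7-/-Tlr9-/- against those of the other 3 genotypes. By limma 0 of the 24080 genes and 0 members were called (3 residual degrees of freedom). At an unadjusted p under 0.05 there were 757 genes and 0 members. The members' differences ran from -0.35 to 0.45 with a median of 0.08, where a positive value means a smaller fall without Tlr7, and the median SE was 0.25. The deletions themselves were read on the arrays. Tlr7 averaged 5.28 ± 0.73 (log2 signal, SD, n = 5) in samples lacking it and 7.81 ± 0.34 (SD, n = 7) elsewhere. Card14 averaged 9.73 ± 0.14 (SD, n = 3) and 11.28 ± 0.24 (SD, n = 9). The ranges of Tlr9 overlapped, so its probe does not check that label.

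The other genes of the cell cycle were read from 7 lists that did not include the members. Of 73 further spindle, kinetochore and condensin genes, 38 fell and 2 rose, with a median of -0.44, beside 15.9% and 10.4% of all genes. Kif14 (-1.15), a kinesin of cytokinesis, Dlgap5, which bundles spindle fibres, and Kif18b, a kinesin that shortens spindle microtubules, fell past the threshold. Dlgap5 was not well above background after IMQ in WT and Tlr9-/-, nor Kif18b in Tlr9-/-, so their average falls are at least 1.96-fold and at least 2.14-fold. Knstrn, a protein of the kinetochore and spindle, was higher by 1.57 on its probe, while its other probe gave -0.87, and the other probes of Kif14 (-0.23) and Dlgap5 (-0.14) gave much smaller values. Of 61 further replication and S phase genes 18 fell and 3 rose, with a median of -0.23. Brca1, a repair gene, fell by 0.82 on its probe, while its other probe gave 0.31. Those that rose were Pole2, a subunit of DNA polymerase epsilon, by 4.17 on 1 probe and -1.05 on the other, Pola2, of the primase complex, by 0.86 with other probes from -1.08 to 0.82, and Hells, a chromatin remodeller, by 0.88. The probes of Pole2, Pola2, Knstrn and Brca1 disagree in sign, so the direction of these genes is not settled.

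**Figure D5:**
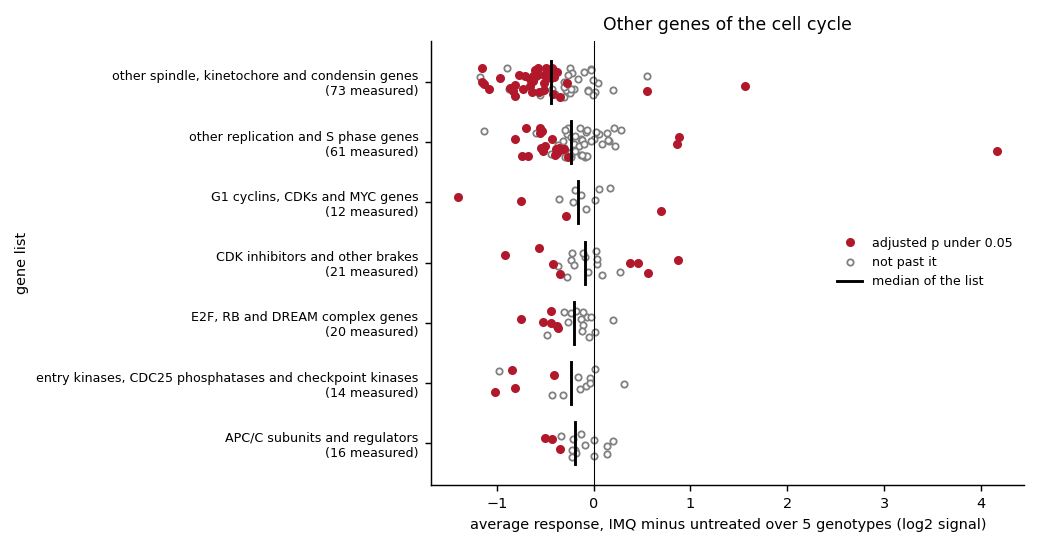
Average response of each gene (x axis, log2 signal) in 7 lists of other cell cycle genes (y axis), filled where the adjusted p is under 0.05, with a bar at the median of the list. Most filled points of the spindle list lie between -1.15 and 0, its median is -0.44, and the isolated point at 4.17 is Pole2 read on 1 of its probes.

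Other lists held the regulators of entry and exit. Their counts stand beside 15.9% of all genes that fell and 10.4% that rose by the same rule, and no list was tested as a set. Of 12 genes of G1 cyclins, their kinases and the MYC family, 3 fell and 1 rose (median -0.17). Myc, the growth factor-induced transcription factor, rose by 0.69 ± 0.14 (SE, adjusted p = 0.0224 by limma) and by 1.08 on its other probe. Mycn fell by 1.40, Mycl by 0.75 and Mxd1, a MYC antagonist, by 0.29, where other probes of Mycl (0.77) and Mxd1 (0.19) had the opposite sign. Of 21 CDK inhibitors and other brakes, 4 fell and 4 rose. Btg2, an antiproliferative gene induced early by stress, rose by 0.87 ± 0.07 (SE, adjusted p = 0.00512 by limma) and Gadd45g, a stress gene, by 0.56. Cdkn2c, the inhibitor p18 of the cyclin D kinases, fell by 0.57 and Cdkn3, a phosphatase of CDKs, by 0.92.

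Of 20 genes of the E2F, RB and DREAM group, 6 fell and 0 rose (median -0.21). Among them were Rbl1, the pocket protein p107 (-0.75), the MuvB subunits Lin54 (-0.52) and Lin9 (-0.44), and E2f2 (-0.44). The other probes of Rbl1 gave -0.09 and -0.05, and those of Lin9 ran from -0.44 to 0.89. Of 14 entry and checkpoint kinases and CDC25 phosphatases, 4 fell and 0 rose. They were Cdc25b (-1.02 ± 0.11 SE, adjusted p = 0.00749 by limma, other probe -0.50) and Cdc25c (-0.82), which activate CDK1, Mastl, a kinase that holds mitosis in place, and Atm (-0.41), a kinase of the DNA damage response. Mastl was not well above background in WT after IMQ, so its average fall is at least 1.79-fold. Of 16 subunits and regulators of the APC/C, the ubiquitin ligase of mitotic exit, 3 fell and 0 rose, Fbxo5 (-0.51), Cdc23 (-0.43) and Anapc2 (-0.34). Over all genes 15.9% fell and 10.4% rose.

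Cell type markers were read beside these genes, as the log2 of the summed signal of each list. Calls of single markers are those of the average response, by which 15.9% of all genes fell and 10.4% rose. The 6 measured basal keratinocyte markers had 0 calls in either direction, with summed levels of 19.02 to 19.16 untreated and 18.87 to 19.13 after IMQ. Bright genes weigh most in a sum, and Krt14, at 18.17 to 18.32, lay near the top of the quantile normalized signals. The basal sum may thus not show a change of these cells. In WT the single basal markers ran from -1.02 (Krt15) to 0.15 (Itga6). Of the 13 hair matrix and shaft markers 0 were called, with summed levels of 13.46 to 15.50 untreated and 13.03 to 15.70 after IMQ. The responses of that sum ran from -2.47 in Tlr7-/- to 1.64 in Card14-/-, so the pools differed widely. Of the 6 sebaceous markers 1 fell and 1 rose. Of the 7 differentiated keratinocyte markers 3 fell, with 19.88 to 20.01 untreated and 19.83 to 19.95 after IMQ. Among endothelial markers 4 of 6 rose, with summed levels of 11.92 to 12.48 untreated and 12.51 to 13.41 after IMQ, and among erythroid markers 3 of 4 rose, from 14.30 to 15.23 untreated to 15.62 to 16.13. T cell markers, of which 4 of 5 rose, had 13.99 to 14.29 and 14.08 to 14.58, and macrophage and dendritic cell markers, of which 2 of 6 rose, had 15.68 to 15.95 and 15.80 to 16.31. Of neutrophil markers 1 of 6 rose, and 2 of 7 fibroblast, 1 of 5 melanocyte and 2 of 5 muscle markers fell. The summed endothelial level was higher by 0.93, 0.93 and 0.78 in WT, Tlr7-/- and Tlr9-/- and by 0.38 and 0.23 in Tlr7-/-Tlr9-/- and Card14-/-. The part of these cell types in the fall of the cell cycle genes was not tested. The markers Krt5 and Trdc were not measured.

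Several members were read on more than 1 probe. For 18 members 30 other probes passed the filter, and 8 of them had the opposite sign from the probe used. They belong to Top2a (0.04 and 0.08 against -0.49), Ccnb1 (0.26 against -0.32), Kif23 (0.03 and 0.84 against -0.40), Ttk (0.55 against -0.50), Prc1 (0.74 against -0.47) and Tyms (0.74 against -0.01). Other probes of Ccnb1 (-0.997 and -0.94), Ttk (-0.78 and -0.48) and Prc1 (-0.79 and -0.72) kept the sign of the probe used. The second probe of Gins2 gave -1.004 and that of Mcm7 0.57. The probes used lie on the mm9 build, as the files give it, at chr4 116832904 to 116832963 for Kif2c, chr2 118466830 to 118466889 for Bub1b and chr10 68805423 to 68807832 for Cdk1. Those of Gins2, Mcm5 and Mcm2 lie at chr8 123105259 to 123105318, chr8 77651350 to 77651410 and chr6 88833619 to 88833678.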

How the data were processed

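RNA of 12 samples was measured on single-colour arrays, 1 per sample, grouped by the sample labels. The raw files hold spot intensity from Agilent Feature Extraction, version 10.7.3.1 per the file headers and 10.5.1.1 per the submitters' processing notes. Per the file headers, the processed intensity had background and spatial trend removed and was not scaled across arrays. Mean spot and median background values, deposited as uncorrected intensity, served the normexp alternative with an offset of 50. Spot flags for background, saturation and outliers are other values, deposited as 0 or 1. A second set of values in log2 units, which the authors deposited after subtracting background and normalizing with limma (per the design text), served as an alternative.

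Processed signals were log2 transformed, then quantile normalized in limma 3.58.1 (R 4.3.3, with package data.table, version 1.17.8). Of 56605 probes, 235 carried an outlier flag and were dropped, and 37125 passed the filter on background (2 arrays). Among a gene's probes the one of highest mean was used (24080 genes), and p-values were adjusted (Benjamini-Hochberg) over all of them. The number of arrays limits the precision. Where a probe was not well above background on all arrays of a group, the fold is the bright mean against the higher of the dim value and the lowest value well above background on that array. The fits were tested on simulated data.

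Members, gene lists and tests were chosen with earlier results of these data known. The rule for named genes takes the 8 mitotic and 5 replication members with the largest average response, the largest of each class in each genotype, up to 4 genes of each list past the threshold, and Tlr7, Tlr9 and Card14. Motifs were searched in RefSeq promoter windows. Python 3.11.15, numpy 2.4.6, pandas 2.3.3 and matplotlib 3.10.9 were used. Alternatives were another scaling, background correction, source of values, filter and probe rule, leaving out arrays or genotypes, and slide as a block.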

Additional observations from a re-analysis of the deposited data

Results flagged for a closer look

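The response to IMQ differed between a knockout and WT, by the test of the difference itself (limma, adjusted p under 0.05 and at least 1 on the log2 scale), for 7 members in 10 results. All 10 are smaller falls, or rises, in the knockout, and all use the same WT arrays. Of all genes, 1.2% were called higher by the same rule in Tlr7-/-, 4.65% in Tlr7-/-Tlr9-/- and 5.16% in Card14-/-. The calls did not hold when 1 repeat array was left out, as given above. Cdk1 differed by 1.46 in Tlr7-/-, 1.75 in Tlr7-/-Tlr9-/- and 2.44 in Card14-/-. Its WT response, -2.16, was the largest of any member in any genotype, and untreated WT was the highest of the untreated arrays. Ttk differed by 1.14 in Tlr7-/-Tlr9-/- and 1.33 in Card14-/-. In Card14-/- Top2a differed by 1.08, Gins2 by 1.09, Bub1b by 1.17, Mcm2 by 1.19 and Aurkb by 1.21. For Tlr7-/-Tlr9-/- and Card14-/- the IMQ arrays lay on another slide than all other arrays, which cannot be told apart from genotype.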

How the results depend on the processing

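The medians of the mitotic and replication members stayed below 0 under every alternative run, between -0.81 and -0.45 and between -0.42 and -0.24. Of the results for single members, 736 kept their direction and their side of the threshold, 187 no longer passed it, 47 newly passed it and 13 changed sign. Genes called for the average response numbered 1382 to 6300.0 without 1 genotype or repeat array (1382 without Tlr9-/-) and 12028 with slide and genotype as blocks, against 6351. Mitotic members that fell, 16, became 3 to 19 without 1 genotype and 27 with both blocks, in a fit that counted repeat arrays singly. Replication members that fell, 5, became 3 under 75th percentile scaling, 1 with no filter on dim probes, 0 to 6 without 1 genotype, 11 with both blocks and 8 in the genotypes of slide 1. Members that fell in WT, 8, became 5 under 75th percentile scaling, 2 under normexp and 5 in the deposited table. In Tlr7-/-, 4 became 2 under normexp and 2 in the deposited table, and in Tlr9-/-, 7 became 4, 1 and 4 under the same 3 alternatives. Without 1 repeat array these numbered 0 to 3 in Tlr7-/- and 0 to 6 in Tlr9-/-. Members higher than in WT numbered 0 under normexp for Tlr7-/-, against 1, 1 with probes above background on all arrays for Tlr9-/-, against 0, 1 under 75th percentile scaling and 1 under normexp for Tlr7-/-Tlr9-/-, against 2, and 4 under normexp and 4 with the mean over probes for Card14-/-, against 7. Without 1 repeat array they numbered 0 for Tlr7-/-, Tlr7-/-Tlr9-/- and Card14-/-. With no limit on size, added after the data were seen, 36, 34, 37, 18 and 10 members fell in the 5 genotypes, and 17 and 21 were higher than in WT for Tlr7-/-Tlr9-/- and Card14-/-. The replication median exceeded the mitotic one by 0.19 under normexp, against 0.30, and by 0.24 to 0.30 elsewhere.

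Signs changed for 4 members. With the mean over all probes Kif23 had an average response of 0.16 and a WT response of 0.0464, and Tyms 0.21. Tyms was 0.0233 under normexp and 0.0138 in the deposited table, where Mcm7 was -0.021 and -0.0216. Without 1 genotype or repeat array Tyms ran from -0.055 to 0.0734, Mcm7 from -0.0257 to 0.0149 and Ccne1 from -0.087 to 0.0201. The mean over all probes takes in probes of opposite sign, for Kif23 at 0.03 and 0.84 and for Tyms at 0.74. For the other changes, except where fewer arrays were fitted, the cause was not tested. Signal over background limits Kif2c, read at the background in 1 array, and Ccne2, which was not measured. By replicate number, no paired analysis was possible because the groups compared share only replicate number 1. The average response is itself paired by genotype, in the fit blocked by genotype, and the replicate numbers add nothing to those pairs.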
